A study of Mus musculus with 4 samples.

Results

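The oocyte Nlrp genes described here are Nlrp4a, Nlrp4b, Nlrp4e, Nlrp4g, Nlrp9a, Nlrp9b, Nlrp9c and Nlrp14. They were taken by gene symbol from the deposited expression tables, which gave 8 genes of 47445 gene identifiers, 1 identifier for each symbol. RNA was measured in C57BL/6N mouse embryos at the late 2-cell stage, with 2 libraries from controls and 2 from embryos that received 5 µM of an siRNA against Uqcc3, an assembly factor of respiratory complex III. Per the labels' protocols, the females were 8 weeks old, injection was at 8 hpi (the labels' unit), the control arm received a negative-control siRNA at that dose and time, and embryos of normal morphology were harvested. The sources disagree on the controls, which the design text describes as normal embryos and whose treatment label is "none". How many embryos went into a library is not stated. No label ties replicates to separate mice or days, so p-values cover the spread of these 4 libraries alone, and that spread may be technical. The ends of the sample titles differ between the groups, and if they mark a batch, batch and group cannot be told apart.

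NLRP proteins carry an N-terminal pyrin domain, a NACHT domain that binds nucleotides, and leucine-rich repeats. Some members, such as NLRP3, form inflammasomes in immune cells, while a reproductive branch is transcribed in growing oocytes and its RNA and protein are stored for the embryo. In mouse this branch has been enlarged by gene duplication, which gave the Nlrp4 and Nlrp9 copies. The maternal RNA store is largely degraded around the 2-cell stage, when transcription of the zygotic genome rises. Nlrp14 is needed in the mother for early cleavage of her embryos and is also transcribed in testis, and Nlrp9b is known outside the germline as a sensor of viral RNA in intestinal epithelium.

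In mm10, the build named in the submitters' processing notes, 7 of the 8 genes lie on chromosome 7. Nlrp9c (26322473 to 26403700, minus strand), Nlrp4a (26435113 to 26476142, plus strand) and Nlrp9a (26535023 to 26575615, plus strand) form 1 cluster, with gaps of 31.4 kb and 58.9 kb. Nlrp4b lies from 10687793 to 10730168, Nlrp9b from 19991465 to 20073306, Nlrp4e from 23301192 to 23362277 and Nlrp14 from 107166990 to 107198102, each on the plus strand of chromosome 7. Nlrp4g lies on chromosome 9 from 124348831 to 124354028, and GENCODE M21 lists it as a transcribed unprocessed pseudogene on the plus strand. The other members are listed as protein coding. Their longest annotated transcripts run from 3216 bases in 9 exons (Nlrp9c) to 4259 bases in 11 exons (Nlrp4a), and that of Nlrp4g has 2030 bases in 4 exons.

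Values of duplicated genes depend on how far reads can tell the copies apart, so the coding starts are shown for both families. Each line gives coding bases 1 to 90 from the GENCODE M21 transcripts, and capitals mark bases that differ from the first line of the family, compared base by base.
Nlrp9c: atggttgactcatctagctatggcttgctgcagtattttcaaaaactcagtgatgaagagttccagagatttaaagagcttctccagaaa
Nlrp9a: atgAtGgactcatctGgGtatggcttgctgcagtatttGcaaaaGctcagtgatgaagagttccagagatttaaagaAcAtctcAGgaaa
Nlrp9b: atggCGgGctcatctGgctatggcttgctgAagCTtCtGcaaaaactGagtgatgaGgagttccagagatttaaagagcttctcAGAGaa
Nlrp4a: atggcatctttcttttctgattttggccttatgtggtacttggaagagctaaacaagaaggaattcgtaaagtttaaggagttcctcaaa
Nlrp4e: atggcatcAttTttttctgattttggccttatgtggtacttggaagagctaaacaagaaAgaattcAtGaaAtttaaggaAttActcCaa
Nlrp4b: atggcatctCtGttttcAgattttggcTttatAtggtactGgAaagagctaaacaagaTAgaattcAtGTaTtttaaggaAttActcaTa

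In this stretch Nlrp9a differed from Nlrp9c at 10 bases and Nlrp9b at 15. Nlrp4e differed from Nlrp4a at 9 bases and Nlrp4b at 16. Over whole coding sequences, identity was 87.4% between Nlrp9a and Nlrp9c, 83.5% between Nlrp9a and Nlrp9b, 82.3% between Nlrp9b and Nlrp9c and 85.9% between Nlrp4a and Nlrp4e. Nlrp14 shared 54.3% to 57.4% with the other coding members. Of all 100-base windows of a longest transcript, 0.449% of Nlrp9c, 0.927% of Nlrp9a and 1.36% of Nlrp9b also occur in a transcript of another gene, and none of Nlrp4a, Nlrp4b, Nlrp4g and Nlrp14 do. The exception was Nlrp4e, with 11.5% of windows shared, nearly all with the pseudogene Gm8486, which the tables list at 0 in every library. How reads with several matches were assigned is not stated. Nlrp9b shares 136 of its 3724 annotated exon bases with the pseudogene Gm18877, which is also listed at 0 in every library.

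Nlrp9a and Nlrp9c also share their upstream sequence. The longest stretch without gaps in the 250 bases before their RefSeq starts (GRCm38.p6) has 157 bases with 3 differences, an identity of 98.1%. It ends 0 bases before the Nlrp9a start (chr7:26534866-26535022, plus strand) and 44 bases before the Nlrp9c start (chr7:26403745-26403901, minus strand). It is printed because it stands upstream of genes whose FPKM values differ widely. Capitals mark the E-box CAGGTG.
Nlrp9a: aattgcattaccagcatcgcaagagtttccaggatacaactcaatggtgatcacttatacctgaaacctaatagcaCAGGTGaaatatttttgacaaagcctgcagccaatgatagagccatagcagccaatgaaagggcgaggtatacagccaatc
Nlrp9c: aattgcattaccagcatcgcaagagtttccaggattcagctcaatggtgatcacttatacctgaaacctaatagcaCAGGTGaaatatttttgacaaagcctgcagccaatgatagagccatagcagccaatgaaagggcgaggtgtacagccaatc

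E-boxes (CANNTG, read on both strands) are bound by basic helix-loop-helix factors such as FIGLA of the oocyte, and 66.2% of 32851 RefSeq windows of 250 bases hold one (the bases before the start only). The form CAGGTG, which is counted among the E-boxes too, occurs on either strand in 17.2% of windows. The oocyte homeobox factor NOBOX binds TAATTG, which occurs on either strand in 7.17% of windows. Windows were found for 6 of the 8 members, not for Nlrp4g and Nlrp14. The capitalised E-box occurs 1 time in each of the Nlrp9a and Nlrp9c windows and in no window of the other 4 members. The NOBOX letters occur at 2 places in the Nlrp9a window and 1 place in the Nlrp9b window. These matches describe the letters only.

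The depth implied by the authors' error bounds was about 16.7 and 18.9 M fragments for control replicates 1 and 2 and about 11.7 and 11.8 M for siRNA replicates 1 and 2. The depth follows from genes with 1 transcript, since the files hold no counts. Values are FPKM, fragments per kilobase of transcript scaled to library size, which is meant to make levels comparable between genes. For some members that comparison is uncertain. FPKM, longest transcript and depth together gave 57124 fragments for Nlrp9c in control replicate 1, where the bounds implied 2450. In the same library these were 3961 against 504 for Nlrp9a, 1143 against 217 for Nlrp4e and 218 against 197 for Nlrp4b. The cause was not tested. Uqcc3 stood at 147 and 211 FPKM in control libraries and 23.7 and 19.8 FPKM with siRNA. The siRNA replicate 2 library stood apart: across the 12390 tested genes, which are not independent replicates, its log2 values correlated with the others at 0.624 to 0.651, and those of the other 3 libraries with each other at 0.867 to 0.875. Its summed FPKM was 436400 and that of the others ranged from 596011 to 695428. Results are therefore also given for each siRNA library alone. Whole embryos were measured, so fewer contributing cells and less RNA per cell cannot be told apart.

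Nlrp9c made up most of the summed FPKM of these 8 genes. The fragments implied by the bounds set it less far apart, with 2450 beside 1168 for Nlrp14 in control replicate 1. The level of Nlrp9c was 1065 and 833 FPKM in the controls and 986 and 196 FPKM with siRNA. The first 3 values lie close together and the last lies far below them, and the groups overlap. Nlrp9c was the highest of the 8 genes in all 4 libraries, where it stood above 99.4% to 99.9% of all gene identifiers. The authors' bounds lay 4.02% to 5.10% from its values. They describe the estimate within 1 library, not the spread between libraries.

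Nlrp9a stood at 71.2 and 34.7 FPKM in control libraries and 72.5 and 30.1 FPKM with siRNA. Each group had 1 high and 1 low library, and the controls alone differed 2.05-fold. Nlrp9b stood at 7.05 and 8.59 FPKM in control libraries and 14.1 and 5.26 FPKM with siRNA. Here the siRNA libraries lay on both sides of the controls, although the bounds of Nlrp9b implied 146 and 148 fragments in them. The FPKM of Nlrp9c was 15.0-fold that of Nlrp9a in control replicate 1 and 24.0-fold in control replicate 2. With siRNA it was 13.6-fold in replicate 1 and 6.51-fold in replicate 2, beside the near-identical upstream stretch printed above. In control replicates 1 and 2 the bounds implied 2450 and 2474 fragments for Nlrp9c, and 504 and 360 for Nlrp9a. In siRNA replicates 1 and 2 they implied 2416 and 1536 for Nlrp9c, and 730 and 119 for Nlrp9a. These fragments set the genes less far apart than FPKM did in the controls and siRNA replicate 1. In siRNA replicate 2 they set them farther apart, and the cause was not tested.

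Nlrp14 stood at 44.3 and 33.5 FPKM in control libraries and 45.9 and 104 FPKM with siRNA. Both siRNA values lay above both controls, but the value of siRNA replicate 1 was only just above control replicate 1 and within its bounds of 41.7 to 46.9 FPKM. Nlrp14 was the only coding member outside the Nlrp4 and Nlrp9 families, and siRNA replicate 2 held its highest FPKM. The fragments implied by its bounds did not show that rise, with 962 and 982 in siRNA replicates 1 and 2. Depth was 11.7 and 11.8 M there, and the cause was not tested.

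Nlrp4a stood at 9.80 and 6.27 FPKM in control libraries and 18.2 and 19.9 FPKM with siRNA. In FPKM the siRNA libraries were close to each other and both lay above both controls. The authors' bounds of the 2 groups did not overlap (at most 10.7 FPKM in the controls, at least 16.6 FPKM with siRNA). Such bounds do not describe the spread between libraries. They implied 516 and 409 fragments in the controls (depth 16.7 and 18.9 M), and 491 and 707 with siRNA (11.7 and 11.8 M). By these fragments the siRNA libraries were less close to each other, and the cause was not tested. Nlrp4a was the member whose siRNA libraries agreed best in their log2 difference from the control mean.

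Nlrp4e stood at 20.3 and 8.05 FPKM in control libraries and 37.6 and 4.75 FPKM with siRNA. The siRNA libraries held both its highest and its lowest value, 7.91-fold apart. Nlrp4b stood at 3.93 and 6.38 FPKM in control libraries and 5.14 and 8.58 FPKM with siRNA, with overlapping groups. Nlrp4g stood at 4.83 and 4.00 FPKM in control libraries and 9.60 FPKM in siRNA replicate 1, and it is listed at 0 in siRNA replicate 2. Nlrp4g was not among the genes marked as failed. A listed 0 may still not mean absent RNA, so no difference is given for that library alone.

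**Figure D1:**
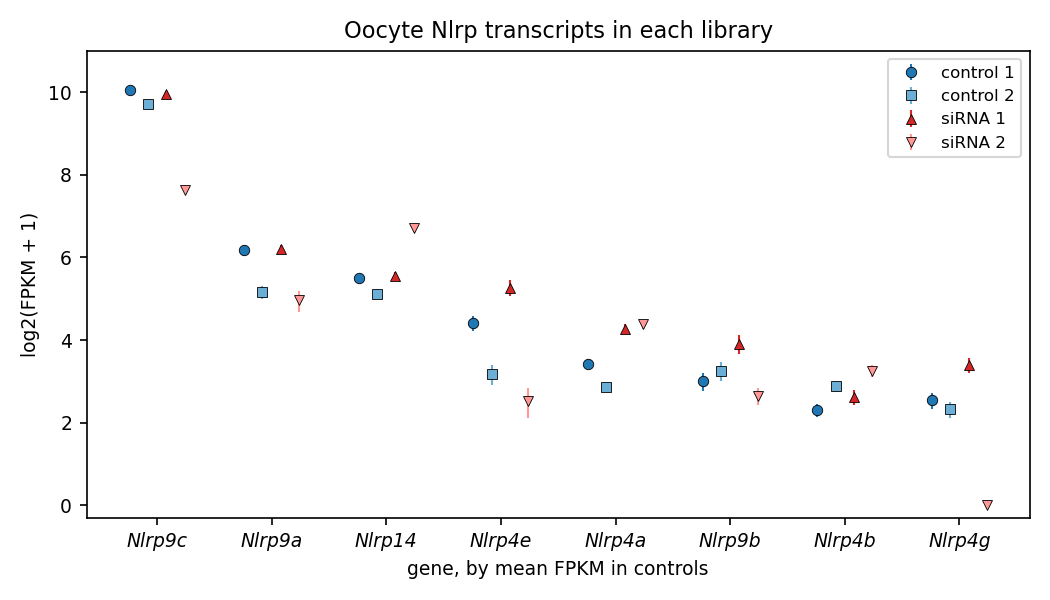
Level of each of the 8 genes as log2(FPKM + 1), with 1 point per library and the authors' lower and upper bounds as bars. Nlrp9c is highest in all 4 libraries, the siRNA values of Nlrp4a lie above both of its control values, and Nlrp4g is listed at 0 in siRNA replicate 2.

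By mean level in the controls the order was Nlrp9c (949 ± 164 FPKM, SD, n = 2), Nlrp9a (53.0 ± 25.8), Nlrp14 (38.9 ± 7.70), Nlrp4e (14.2 ± 8.64), Nlrp4a (8.04 ± 2.50), Nlrp9b (7.82 ± 1.09), Nlrp4b (5.16 ± 1.73) and Nlrp4g (4.42 ± 0.585). Among neighbours in this order, the control values were separate for Nlrp9c and Nlrp9a, for Nlrp14 and Nlrp4e, and for Nlrp9b and Nlrp4b. The other neighbours (Nlrp9a and Nlrp14, Nlrp4e and Nlrp4a, Nlrp4a and Nlrp9b, Nlrp4b and Nlrp4g) overlapped. Of the order, the places of Nlrp9c over Nlrp9a and of Nlrp14 over Nlrp4e held in all 4 libraries.

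The 8 genes summed to 1226 and 934 FPKM in the controls and to 1189 and 368 FPKM with siRNA, which was 0.180%, 0.134%, 0.200% and 0.0844% of all FPKM. The low sum of siRNA replicate 2 followed Nlrp9c. Without Nlrp9c the sum was 161 and 101 FPKM in the controls and 203 and 172 FPKM with siRNA. Nlrp9c made up 86.8% and 89.1% of the sum in the controls and 82.9% and 53.2% with siRNA. Nlrp14 made up 3.62% and 3.58%, 3.86% and 28.2% in the same libraries, so the make-up of siRNA replicate 1 resembled that of the controls and that of siRNA replicate 2 did not.

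**Figure D2:**
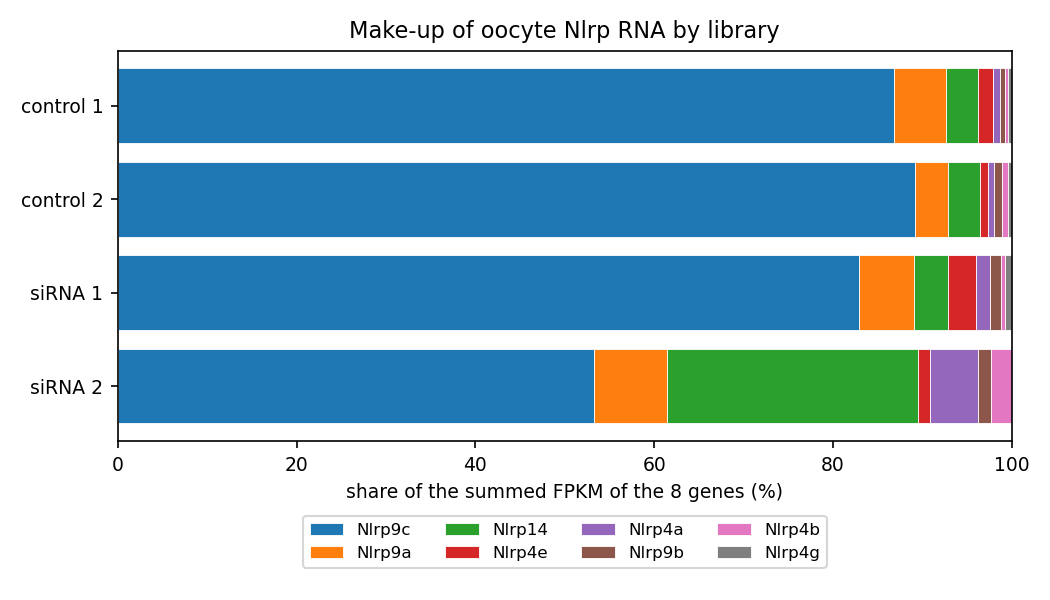
Share of the summed FPKM of the 8 genes held by each gene (horizontal axis, percent), with 1 bar per library. Nlrp9c holds 82.9% to 89.1% in 3 libraries and 53.2% in siRNA replicate 2, where Nlrp14 holds 28.2%.

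The comparison of siRNA with control asked whether depletion of Uqcc3 came with other levels of these maternal transcripts. All 8 genes passed the filter (1 FPKM or more in 2 or more libraries). None of the 8 passed in limma with Benjamini-Hochberg adjustment over all 12390 genes at 0.05, where 0% of all genes passed. At an unadjusted p under 0.05 there were 738 genes (5.96%) and 0 of the 8. Differences are given as siRNA minus control in log2(FPKM + 1), which understates changes of low genes.

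Nlrp4a had a log2 difference of 1.18 (SE 0.82, 95% interval -0.72 to 3.07, limma adjusted p = 0.759), with 1.12 in siRNA replicate 1 and 1.24 in siRNA replicate 2. Nlrp14 had a difference of 0.83 (SE 0.70, 95% interval -0.80 to 2.45, limma adjusted p = 0.800), with 0.25 and 1.41 in the siRNA libraries. In these 2 of 8 genes both siRNA libraries lay above both controls, as in 8.60% of all tested genes. In 0 of 8 both lay below, as in 30.0% of all tested genes. After cyclic loess these shares were 17.6% above and 18.5% below, and Nlrp4b joined Nlrp4a and Nlrp14 there and under median-of-ratios scaling.

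Nlrp9c had a log2 difference of -1.10 (SE 0.82, 95% interval -3.00 to 0.81, limma adjusted p = 0.776). It rested on 1 library, with 0.066 in siRNA replicate 1 and -2.26 in siRNA replicate 2, where Nlrp9c stood at 20.7% of the control mean. At depths of 11.7 and 11.8 M, the bounds implied 2416 and 1536 fragments in siRNA replicates 1 and 2. That gap is smaller than the gap in FPKM, and the cause was not tested. With siRNA replicate 1 left out, so that the spread comes from the 2 controls, Nlrp9c passed in limma (adjusted p = 0.0257), as did 1477 of all genes (11.9%). The lone library is assumed there to vary as the controls do. With siRNA replicate 2 left out, its limma adjusted p was 0.971. Set alone against the controls, siRNA replicate 2 lay below both in 5 of 8 genes, Nlrp4g with its listed 0 among them (50.5% of all tested genes), and above both in Nlrp4a, Nlrp4b and Nlrp14 (32.0%). Set alone, siRNA replicate 1 lay above both controls in 6 of 8 genes (20.6% of all tested genes) and below both in 0 (48.3%).

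The remaining members had intervals that reach well to both sides of 0. Nlrp4b had a log2 difference of 0.35 (95% interval -1.86 to 2.56), with 0.026 and 0.67 in siRNA replicates 1 and 2. In Nlrp4e (0.10), Nlrp9b (0.15) and Nlrp9a (-0.087) 1 siRNA library lay above the control mean and 1 below. Their differences were 1.47, 0.78 and 0.53 in siRNA replicate 1 and -1.27, -0.49 and -0.71 in siRNA replicate 2. Nlrp4g had a difference of 0.97 in siRNA replicate 1. Its fitted difference of -0.73 includes the listed 0 of siRNA replicate 2, and its size is set by the pseudocount: it was -2.19 with 0.1 FPKM added in place of 1. The sign of Nlrp9a turned under all 4 scalings between libraries, which gave 0.27 to 0.50. Over these 5 genes limma's adjusted p ran from 0.903 to 0.991. Each siRNA library thus had its own pattern: in siRNA replicate 1 all 8 differences from the control mean were above 0, and in siRNA replicate 2 those of Nlrp4a, Nlrp4b and Nlrp14 were above 0 and those of the 3 Nlrp9 genes and Nlrp4e below, with Nlrp4g listed at 0.

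**Figure D3:**
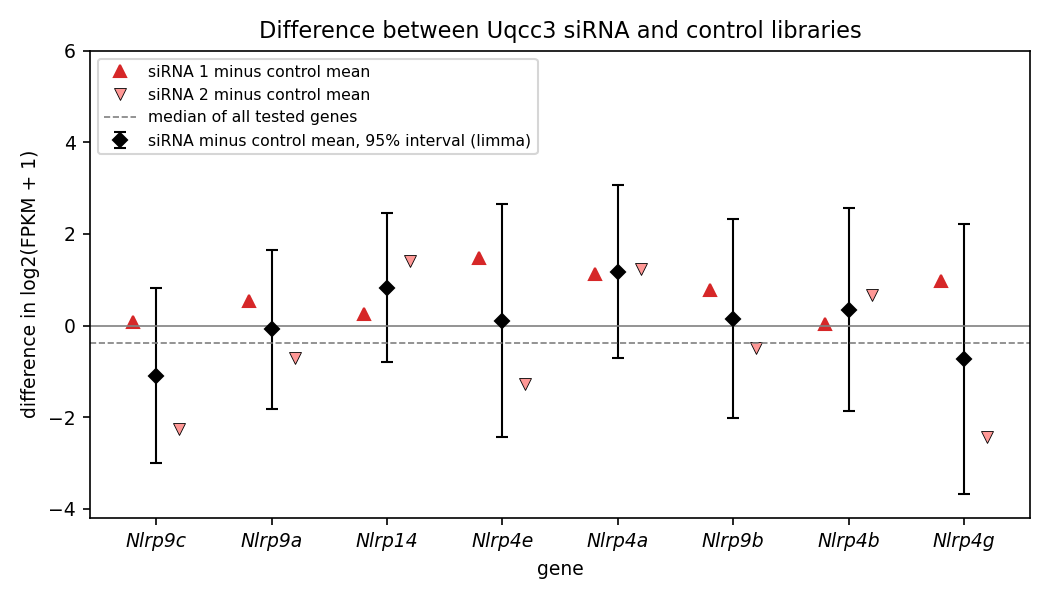
Difference in log2(FPKM + 1) between siRNA and control libraries for each gene. Diamonds with bars are the limma estimate and its 95% interval, triangles are each siRNA library minus the control mean, and the dashed line is the median of all tested genes (-0.39). Every interval includes 0, and the siRNA libraries lie close together for Nlrp4a and far apart for Nlrp9c and Nlrp4e. The low triangle of Nlrp4g is its listed 0.

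The median log2 difference was -0.39 over all tested genes and 0.12 over the 8 members. It was -0.30 against 0.66 in siRNA replicate 1, and -0.57 against -0.60 in siRNA replicate 2. The members' values of 0.12 and -0.60 include the listed 0 of Nlrp4g. The shift of all genes depended on scaling and lay between -0.08 and 0.03 under cyclic loess, quantile normalization, median-of-ratios scaling or conversion to TPM. Relative to the median of all genes, Nlrp4a lay at 1.57, Nlrp14 at 1.22, Nlrp4b at 0.74, Nlrp9b at 0.53, Nlrp4e at 0.49, Nlrp9a at 0.30, Nlrp4g, with its listed 0, at -0.34 and Nlrp9c at -0.71. Under those 4 scalings the relative value was 1.48 to 1.71 for Nlrp4a, 1.24 to 1.39 for Nlrp14 and -0.71 to -0.23 for Nlrp9c, so 6 of 8 members stayed above the median of all genes and Nlrp4g and Nlrp9c below.

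**Figure D4:**
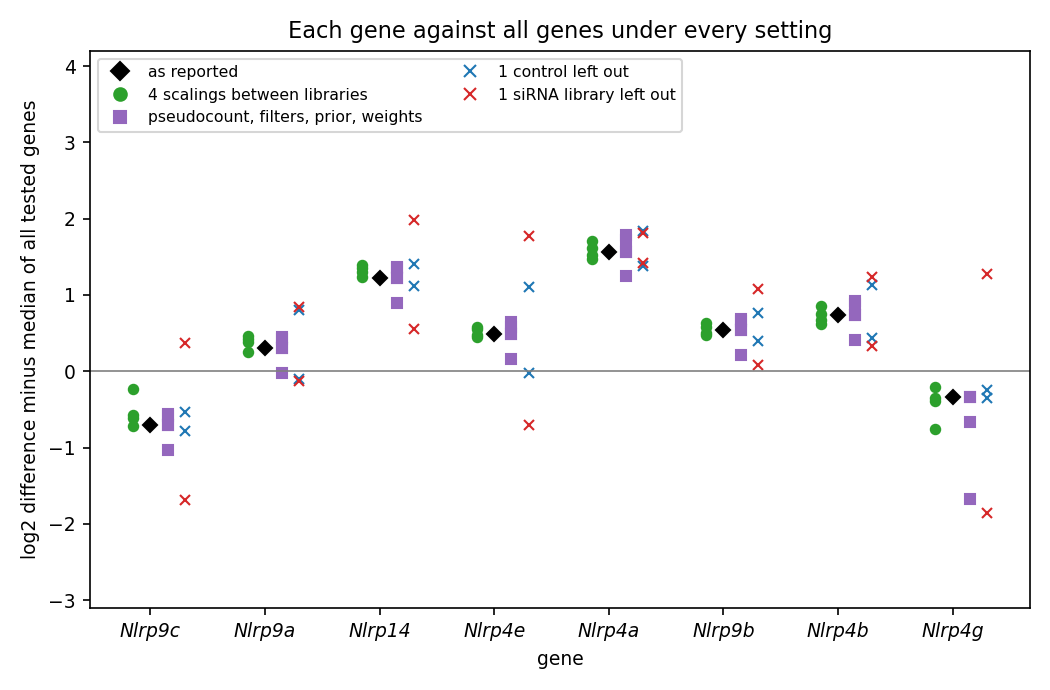
Log2 difference of each gene minus the median of all tested genes, under the reported setting (diamonds) and the 13 alternatives. Nlrp4a and Nlrp14 lie above 0 throughout, and Nlrp4b and Nlrp9b also do. Leaving out 1 siRNA library moves Nlrp4e, Nlrp9a, Nlrp9c and Nlrp4g across 0. Without control replicate 2, Nlrp4e (-0.025) and Nlrp9a (-0.10) fall just below 0, as Nlrp9a does with no filter on low values (-0.021).

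Patterns across the 4 libraries grouped the members in part across families. By Euclidean distance between log2(FPKM + 1) profiles centred on their own mean, Nlrp14 and Nlrp4a were the closest pair (0.82) among the 7 members other than Nlrp4g, followed by Nlrp14 and Nlrp4b (0.92) and by Nlrp9a and Nlrp9b (0.93). Nlrp14 and Nlrp9c were farthest apart (3.12). Distances to Nlrp4g are left out, since they rest on its listed 0. The cluster neighbours Nlrp9c and Nlrp4a, 31.4 kb apart, had a distance of 2.86, although Nlrp9c and Nlrp9a, on either side of Nlrp4a, had 1.35. Among 4501 other genes with a mean of at least 10 FPKM, those closest to the median profile of the members were Stmn1 (0.10), Ctps2 (0.18), Tmsb15b1 (0.20), Ndufs6 (0.23) and Snora21 (0.24). These rest on 4 points that share depth and scaling within each library, and the median profile includes the listed 0 of Nlrp4g.

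Of 12 other Nlrp family genes, 6 passed the filter and 0 passed in limma (smallest adjusted p = 0.745, 1 at an unadjusted p under 0.05). In 3 of the 6 (Nlrp4f, Nlrp5 and Nlrp2) both siRNA values exceeded both control values, against 8.60% of all tested genes. Nlrp4f, which belongs to the subcortical maternal complex, stood at 11.7 and 7.32 FPKM in control libraries and 38.2 and 48.8 FPKM with siRNA (log2 difference 2.10, SE 0.75, limma adjusted p = 0.745). Like Nlrp4a, it had siRNA libraries that were close to each other (1.93 and 2.27). Nlrp5, also called Mater, the core of that complex, stood at 11.3 and 6.19 FPKM in control libraries and 14.1 and 28.6 FPKM with siRNA, the order of libraries seen in Nlrp14. Nlrp2, another maternal gene, stood at 4.29 and 0.210 FPKM in control libraries and 4.87 and 15.8 FPKM with siRNA. Its value in siRNA replicate 1 lay within the bounds of control replicate 1 (3.64 to 4.94 FPKM). The bounds of Nlrp2 implied 172 and 3.07 fragments in the controls, and 37.2 and 193 with siRNA. Nlrp4c and Nlrp12 had overlapping groups. Nlrp6 was lower with siRNA in each library (1.26, 3.51, 1.10 and 0.533 FPKM). Nlrp1a, Nlrp1b, Nlrp10 and the pseudogene Nlrp4d are listed at 0 in all libraries, and Nlrp3 and Nlrx1 stayed under 1 FPKM.

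The subcortical maternal complex, a multiprotein assembly under the oocyte membrane needed for the first cleavages, was taken as Nlrp5, Tle6, Ooep, Khdc3, Padi6, Zbed3, Nlrp2 and Nlrp4f, of which Nlrp5, Nlrp2 and Nlrp4f were counted above too. All 8 were tested and 0 passed, with 2 at an unadjusted p under 0.05. Both siRNA values exceeded both control values in 4 of 8, Nlrp2 by the narrow margin given above, against 8.60% of all tested genes. They were under both control values in 0, against 30.0%. After cyclic loess these shares of all genes were 17.6% and 18.5%, and the list was not counted again there. The median log2 difference was 1.23, against -0.39 over all tested genes. Tle6 stood at 5.19 and 12.5 FPKM in control libraries and 26.0 and 122 FPKM with siRNA. Ooep, at 18.6 and 6.69 FPKM against 18.6 and 4.65 FPKM, had 1 high and 1 low library in each group, as Nlrp9a did. Their difference from the 8 oocyte Nlrp genes was not tested.

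**Figure D5:**
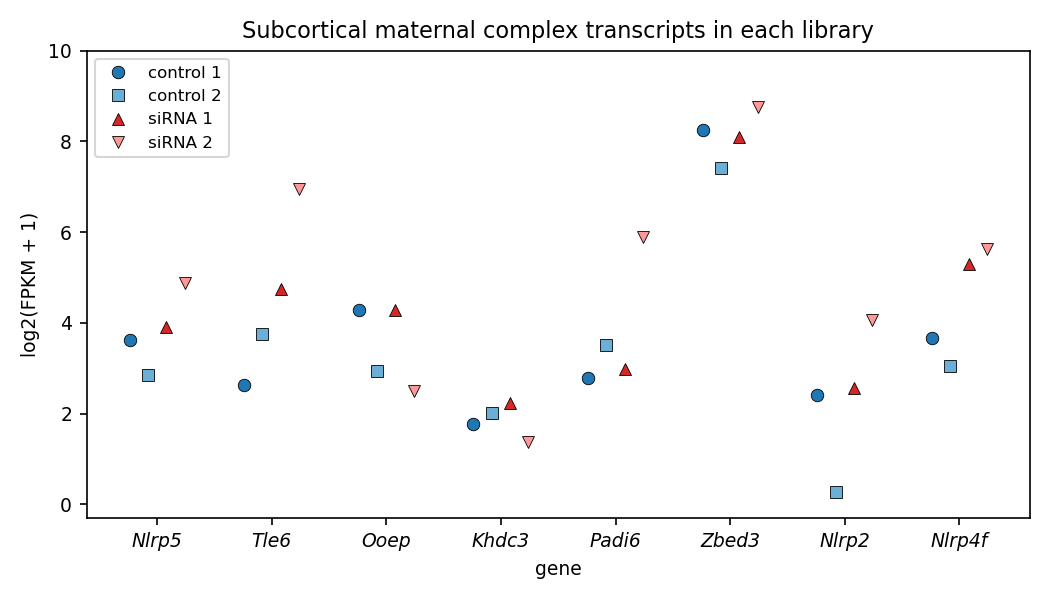
Level of 8 subcortical maternal complex genes as log2(FPKM + 1), with 1 point per library. Nlrp5, Tle6, Nlrp2 and Nlrp4f have siRNA values above both control values, and Ooep and Khdc3 are lowest in siRNA replicate 2.

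Genes of the inflammasome, the complex that immune NLRP proteins build with the adaptor Pycard and the protease Casp1, were low. Of 13 genes, 10 stayed under 1 FPKM in all libraries and 5 are listed at 0 in all. Pycard and Casp1 are listed at 0 in the controls and in siRNA replicate 1 and stood at 0.515 and 0.464 FPKM in siRNA replicate 2. The 3 tested genes, Nek7, Nlrc4 and Naip1, were lowest in siRNA replicate 2 and had overlapping groups. The list summed to 10.2 and 7.61 FPKM in the controls and 12.9 and 1.43 FPKM with siRNA.

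Of 7 oocyte transcription factors, 3 passed the filter and 0 passed in limma. Nobox stood at 2.51 and 9.93 FPKM in control libraries and 6.69 and 3.61 FPKM with siRNA, with overlapping groups. Taf4b, a TFIID subunit of germ cells, stood at 7.78 and 5.77 FPKM in control libraries and 9.96 and 35.6 FPKM with siRNA, both above both controls. Figla was listed at 0 in 3 libraries and at 0.713 FPKM in siRNA replicate 1.

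Other oocyte transcripts had the high and low values of siRNA replicate 2 in both directions too. Of 20 genes such as zona pellucida and oocyte-secreted factors, all were tested, 0 passed, 5 had both siRNA values under both control values and 1 had both over them, with a median log2 difference of -0.37. These are near the values over all tested genes (30.0% under, 8.60% over, median -0.39). Oosp3, at 1085 and 591 FPKM in the controls and 2051 and 192 FPKM with siRNA, had the order of libraries of Nlrp4e. Gdf9, a growth factor of the oocyte, stood at 44.3 and 69.8 FPKM against 52.1 and 177 FPKM. Of 16 tested 2-cell transcripts, which come from the newly active genome, 0 passed, 10 had both siRNA values under both control values and 0 over them, with a median of -0.91, beside the same 30.0%, 8.60% and -0.39 over all tested genes. After cyclic loess 18.5% of all genes were under and 17.6% over, and the list was not counted again there. Zscan4d, for example, stood at 130 and 298 FPKM against 108 and 6.71 FPKM.

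Markers of other cells were partly at the level of the lower members. Of 10 cumulus and granulosa markers, 7 stayed under 1 FPKM in all libraries, and Amh and Fshr are listed at 0 throughout. The list summed to 8.66 and 16.1 FPKM in the controls and 11.3 and 1.26 FPKM with siRNA, with Tnfaip6 highest at 14.1 FPKM in control replicate 2. Of 10 blood and macrophage markers 4 stayed under 1 FPKM, and Hbb-bs and Adgre1 are at 0 throughout. Their sum was 27.5 and 39.8 FPKM against 30.8 and 8.21 FPKM. The haemoglobin gene Hba-a1 reached 18.8 FPKM in control replicate 2 and is listed at 0 in siRNA replicate 2, where Csf1r, a macrophage receptor, stood at 7.02 FPKM and under 1 FPKM elsewhere.

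Of 8 sperm markers 3 stayed under 1 FPKM and Akap4 is at 0 throughout. Their sum was 26.5 and 37.2 FPKM against 47.1 and 22.6 FPKM. Ldhc, a germ cell lactate dehydrogenase, stood at 15.9 and 17.9 FPKM in control libraries and 21.3 and 22.4 FPKM with siRNA, both above both controls, as Nlrp4a and Nlrp14 were (log2 difference 0.35, limma adjusted p = 0.920). Pgk2 reached 17.2 FPKM in control replicate 2. Of 8 blastocyst markers 5 stayed under 1 FPKM, and Cdx2, Sox17 and Krt8 are at 0 throughout, with sums of 2.35 and 10.8 FPKM against 9.02 and 5.29 FPKM. Krt18 reached 10.2 FPKM in control replicate 2. Eomes, a trophoblast factor, stood at 0.020 and 0.057 FPKM against 1.7 and 3.04 FPKM (log2 difference 1.67, limma adjusted p = 0.745, with an unadjusted value under 0.05). The cumulus, blood and sperm sums were lowest in siRNA replicate 2, as Nlrp9c was, and the part of these markers in the results was not tested.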

How the data were processed

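Each library has a deposited table of FPKM with lower and upper bounds, per the file headers. Cufflinks 2.2.1 and Cuffdiff 2.2.1, STAR 2.7.3a, Trim Galore 0.6.5 and SAMtools 1.7 are listed with the build mm10, per the submitters' processing notes. Annotation release and depth are not stated. Rows of 1 gene identifier were summed. Groups came from the treatment labels, and replicates were numbered in accession order. Depth was the median over genes with 1 annotated transcript of at least 2000 bases, with fragments per gene (10 to 1000) from (2 × FPKM / (upper bound - FPKM)) squared. Of genes with 1 transcript and up to 30 such fragments, 70.8% to 75.9% came out whole within 0.05. Over all genes that share was 40.1% to 44.8%. All members have several annotated transcripts, so their bounds are not shown to hold counting error alone. The depth entered no test.

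Groups were compared two-sided on log2(FPKM + 1) by limma 3.58.1 in R 4.3.3 with an abundance trend, keeping genes at 1 FPKM or more in 2 or more libraries and leaving out 2 genes marked as failed. It was also run on simulated data with independent noise for each gene and library. Those data held no library that stands apart as siRNA replicate 2 does, so no conclusion is drawn from them. The smallest two-sided p of an exact permutation test in this design is 0.333. The 8 members and all lists were chosen with earlier results of these data known. Named are the members, other Nlrp genes at a mean of at least 10 FPKM, and the 5 genes closest to the members' median profile (predicted genes left out). Other genes are examples chosen after their values were seen. Alternatives were another pseudocount, filter, scaling, prior or weighting, and each library left out.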

Additional observations from a re-analysis of the deposited data

How the results depend on the processing

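Of 13 other settings, the log2 differences of Nlrp4a, Nlrp4b and Nlrp14 kept their direction in all, from 0.89 to 1.63, 0.026 to 0.77 and 0.25 to 1.42. The count of members that passed and the count of genes that passed stayed at 0 in these except without siRNA replicate 1. With 1 library left out, genes that passed ranged from 0 to 1477, members that passed from 0 to 1 (Nlrp9c), members with siRNA above both controls from 2 to 6 and below from 0 to 5. Of all genes, 20.6% lay above without siRNA replicate 2 and 50.5% below without siRNA replicate 1. Nlrp9a changed sign under TPM (0.34), median-of-ratios scaling (0.33), quantile normalization (0.27) and cyclic loess (0.50), and the cause was not tested. Leaving out 1 library gave -0.71 to 0.53 for Nlrp9a, -1.27 to 1.47 for Nlrp4e, -2.43 to 0.97 for Nlrp4g (the lower value rests on its listed 0 and the pseudocount), -0.49 to 0.78 for Nlrp9b and -2.26 to 0.066 for Nlrp9c, so their direction rests on single libraries. Nlrp4g was not tested with the filter at 5 FPKM. The labels carry no replicate numbers, but the names of the deposited files carry the numbers 2 and 3 in both groups. A fit with these as a replicate block, chosen after seeing the data, gave 1 gene that passed (Snord47, limma adjusted p = 0.00687), no member (adjusted p 0.755 to 0.993) and 1028 genes at an unadjusted p under 0.05. Libraries with the same number deviated together with a correlation of 0.058 across genes. That value cannot decide whether they are pairs, since siRNA replicate 2 stood apart and genes are not independent replicates. The labels name no pairs, and the main fit held none. Genes at an unadjusted p under 0.05 numbered 738, and 477 under TPM, 460 under median-of-ratios scaling, 462 under quantile normalization and 467 with the filter at 5 FPKM. They numbered 149 to 4146 with 1 library left out. The authors' bounds are widest for Nlrp4e in siRNA replicate 2 (29.7% of its value), and a p that misses the threshold does not show equal levels.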

Other observations

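For single members, the closest profile among the 4501 other genes with a mean of at least 10 FPKM was looked up after the members' values were seen. Nlrp14 was closest to Rala, a small GTPase (distance 0.085 in centred log2(FPKM + 1) over 4 libraries), with control levels of 14.6 and 11.5 FPKM and siRNA levels of 15.2 and 33.8 FPKM. The gene second closest to Nlrp9c was Cox6b2, the testis form of a cytochrome c oxidase subunit (distance 0.11), with control levels of 1168 and 914 FPKM and siRNA levels of 1106 and 235 FPKM. These distances rest on 4 points each and carry no test.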
